A study of Homo sapiens with 12 samples.

Results

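The genes described here act in G2 and mitosis, the last stages of the cell division cycle, and were followed in U937 cells that had taken up a plasmid for the leukemia fusion PML-RARA. The set of 47 genes was fixed by name. For each gene the Affymetrix probe set (a group of short probes for 1 transcript) with exactly 1 gene symbol and the highest mean log2(signal + 62.5) over the arrays was taken. All 47 were found among the 19775 genes with such a probe set, and all 47 were among the 13959 genes that passed the filter on low signals (mean log2 of 7.85 or more). The probe set rule used the mean signal over all 12 arrays, and the names were chosen with earlier results of these data known.

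U937 cells are an established human line with monocytic features, grown from a lymphoma. Per the labels, the cells were electroporated with 1 of 3 pEGFP plasmids, and cells positive for green fluorescent protein (GFP) were sorted for RNA after 6 h or 9 h. The plasmids carried GFP alone (the control, GFP), the wild-type fusion (PRWT) or PR2VR. The series title speaks of a protease-resistant fusion, which is read here as PR2VR, although the labels of those samples also call the insert wild type. The labels name no further treatment and no other genotype, so the untransfected genome of U937, including its own PML and RARA genes, is common to all groups. The fusion comes from a transiently transfected plasmid in sorted cells of 1 line, not from the chromosomal rearrangement of a leukemia. Each of the 6 groups (GFP, PRWT and PR2VR at 6 h and at 9 h) holds 2 arrays, numbered 1 and 2 in the titles, which gives 12 arrays. The time is given from infection in the fusion titles and from transfection in the GFP titles, so any difference in procedure behind these words cannot be told apart from the fusion. Whether the 2 arrays of a group stem from different transfections is not said, and the p-values speak only of the spread among these arrays, and part or all of it may be technical.

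Entry into mitosis is driven by the kinase CDK1 bound to cyclin A (CCNA2) and then to cyclins B (CCNB1, CCNB2). WEE1 holds CDK1 inactive by phosphorylation and the CDC25 phosphatases release it. The kinases PLK1, AURKA, AURKB and NEK2 shape the spindle and the centrosomes, and the spindle checkpoint (BUB1, BUB1B, BUB3, MAD2L1, TTK) holds back CDC20 and the anaphase-promoting complex until every kinetochore is attached. Most of these genes are transcribed in late S phase and G2 under the factor FOXM1 and the MuvB complex, which binds a short promoter element called the CHR (cell cycle genes homology region), often next to CCAAT boxes bound by the factor NF-Y. In a bulk sample, fewer cells in these stages and less RNA per cell cannot be told apart.

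The transfected gene was read first. The RARA probe set gave signals of 48.2 to 309.2 on the 4 GFP arrays and of 9281.2 to 58985 on the 8 fusion arrays, with no overlap. The trimmed mean signal was 1500.2 on each array, and the median signals ran from 238.6 to 436. Of the 10 myeloid markers 8 were matched: CD4, LYZ, ITGAM, CSF1R and TYROBP were above the filter's signal of 168.9 on 12 of 12 arrays, MPO on 10, FCGR1A on 7 and SPI1 on 5. Markers of other cells were also above it on many arrays. Of the T cell genes CD2 was so on 11 arrays, CD3D on 7, CD3G on 6, LCK on 4, CD3E on 3 and CD8A on 2. Of the B cell genes PAX5 was so on 12, CD79A on 11, MS4A1 on 9 and CD79B on 7. The erythroid gene HBB was above it on 12 arrays, ALAS2, ITGA2B and PF4 on 6, 6 and 4. Of the epithelial and fibroblast genes KRT8 and COL1A1 were so on 12, DCN on 9, KRT18 on 8, COL3A1 on 4, EPCAM on 2 and KRT19 on 0. The probe sets of these lists therefore do not by themselves set myeloid cells apart. The number 2 arrays of 9 h stood apart in all 3 constructs, with median signals of 387.8 to 436 against 238.6 to 292.1 on the other 9. Their ratios of 3' to 5' GAPDH signal (lower with more intact or fully labelled RNA) were 2.21 to 2.75 against 3.82 to 12.9. The same ratios for actin were 7.79 to 10.7 against 12.5 to 58.2. Number 2 of PR2VR at 6 h had the lowest median signal (238.6). Its GAPDH ratio was 3.82, yet its actin ratio was 56.9, against 12.5 to 27.5 on the other 6 h arrays. On the second principal component number 1 of PR2VR at 6 h scored 65.2, the 3 number 2 arrays of 6 h scored -41.1 to -36.8, and the remaining 8 arrays -0.28 to 14.8.

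Promoter sequences from RefSeq (GRCh38.p14; 250 bases before to 50 after each start) matched 39 of the 47 genes. TTTGAA or TTCGAA, the CHR letters searched on both strands, stood in the promoters of 31 of these 39 genes (79.5%, against 19.5% of 27305 genes with any promoter in the table). CCAAT, searched on both strands, stood in 33 of 39 (84.6% against 39.7%), and both motifs stood in 27 of 39 (69.2% against 7.85%). A CHR that begins within the 50 bases before the start was found for 21 of 39 genes, against 3.43% of all genes. These are matches of letters, not shown binding sites. The 7 windows printed next hold the 200 bases before the start, 5' to 3' on the gene's strand, with CHR and CCAAT letters (either strand) in capitals. They were chosen to show the shared layout in CCNB2 and PLK1, and because the values of the other genes are given in detail below.
CCNB2 (chr15:59104946-59105145, plus strand): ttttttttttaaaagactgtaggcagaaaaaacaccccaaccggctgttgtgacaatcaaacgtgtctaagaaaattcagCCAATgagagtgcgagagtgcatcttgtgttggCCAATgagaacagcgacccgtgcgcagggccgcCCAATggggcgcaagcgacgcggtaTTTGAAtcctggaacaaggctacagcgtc
PLK1 (chr16:23678689-23678888, plus strand): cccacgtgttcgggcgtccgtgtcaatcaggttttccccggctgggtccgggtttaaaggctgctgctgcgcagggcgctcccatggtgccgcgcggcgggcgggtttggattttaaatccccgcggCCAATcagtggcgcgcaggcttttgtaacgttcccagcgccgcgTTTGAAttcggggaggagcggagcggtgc
BUB1B (chr15:40160869-40161068, plus strand): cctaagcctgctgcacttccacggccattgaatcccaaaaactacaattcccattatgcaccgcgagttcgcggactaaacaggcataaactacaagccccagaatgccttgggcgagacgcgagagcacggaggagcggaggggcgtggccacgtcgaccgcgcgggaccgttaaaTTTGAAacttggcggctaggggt
TOP2A (chr17:40417897-40418096, minus strand): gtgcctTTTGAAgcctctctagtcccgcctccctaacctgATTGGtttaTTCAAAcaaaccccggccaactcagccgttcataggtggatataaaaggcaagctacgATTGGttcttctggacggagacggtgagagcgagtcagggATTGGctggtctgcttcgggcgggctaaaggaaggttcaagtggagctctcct
CKS1B (chr1:154974481-154974680, plus strand): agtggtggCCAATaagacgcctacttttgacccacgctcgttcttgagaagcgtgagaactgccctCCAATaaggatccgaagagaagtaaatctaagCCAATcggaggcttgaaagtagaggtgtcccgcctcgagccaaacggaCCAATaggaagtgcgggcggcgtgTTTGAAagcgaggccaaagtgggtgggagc
CKS2 (chr9:89310995-89311194, plus strand): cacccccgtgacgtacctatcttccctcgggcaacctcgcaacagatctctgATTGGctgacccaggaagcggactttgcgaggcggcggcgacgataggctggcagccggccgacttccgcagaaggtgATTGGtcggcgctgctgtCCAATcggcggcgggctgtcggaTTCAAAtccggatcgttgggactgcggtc
KIF2C (chr1:44739637-44739836, plus strand): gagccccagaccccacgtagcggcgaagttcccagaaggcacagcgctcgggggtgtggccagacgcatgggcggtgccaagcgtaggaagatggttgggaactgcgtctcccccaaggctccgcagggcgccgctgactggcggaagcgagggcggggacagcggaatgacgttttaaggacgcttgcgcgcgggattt

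In CCNB2 and PLK1 a single CHR begins 29 bases before the start, with CCAAT letters upstream. CKS1B and CKS2 have the same layout, with the CHR at -30 and -29. BUB1B has the CHR at -23 and no CCAAT, TOP2A has CHR letters further up at -194 and -151, and KIF2C has neither motif in its 300 bases.

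All 47 genes were well represented. Of these, 46 were above a signal of 168.9 on all 12 arrays, the exception being AURKB (99.5 on number 1 of PRWT at 9 h and 91.6 on number 1 of PR2VR at 9 h). For 25 of the 47 genes the highest of the 12 signals was at least 3 times the lowest, and for 8 it was under 2 times the lowest. The 2 arrays of a group differed by a median over the 47 genes of 0.30 to 0.84 (absolute log2 difference), the widest group being PR2VR at 6 h. Over all genes tested that median was 0.45 to 0.66. The map of centred values shows the genes by class on each array.

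**Figure D1:**
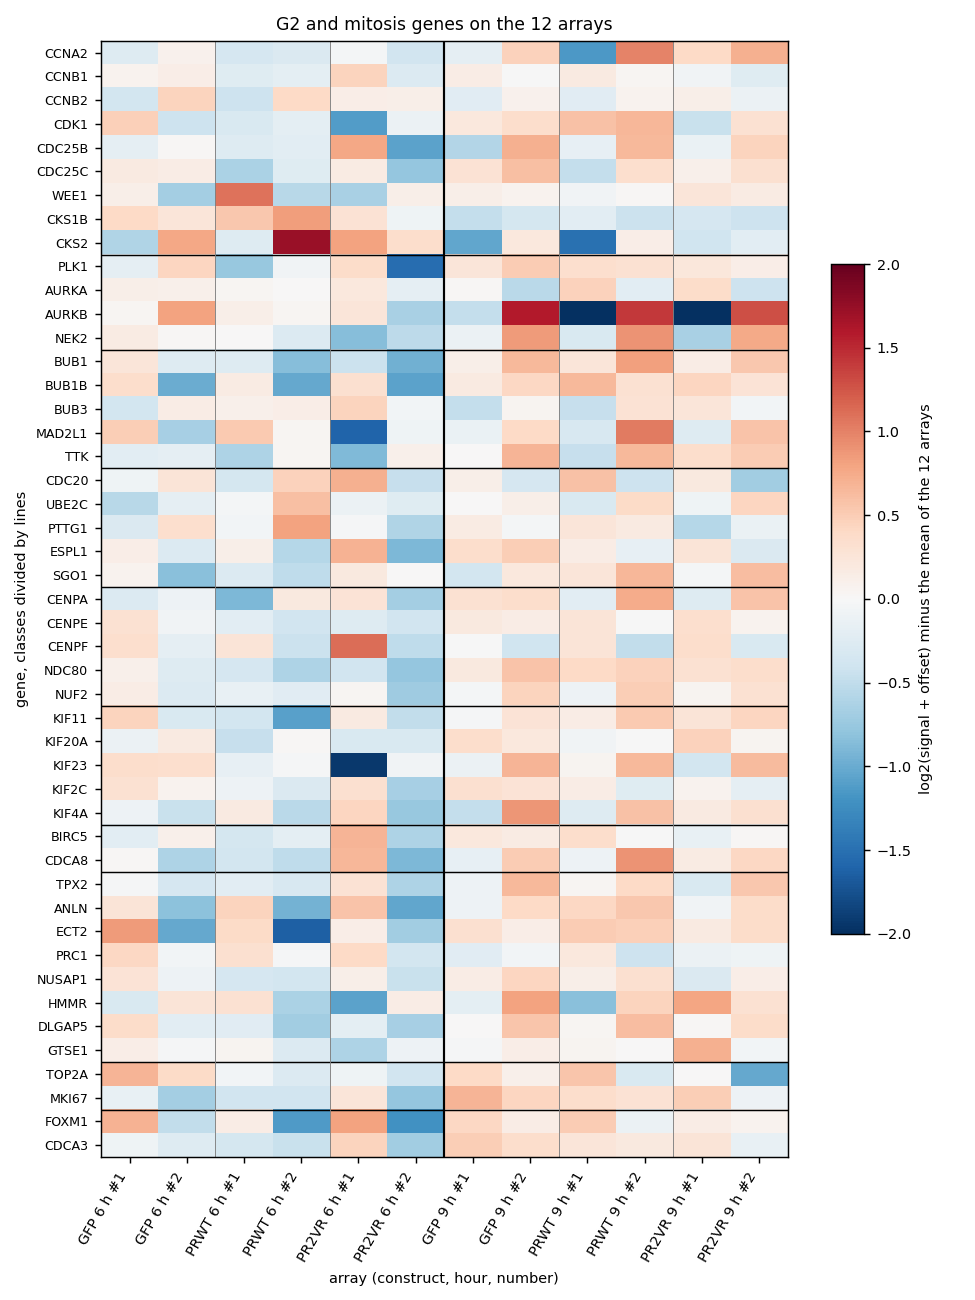
Log2(signal + 62.5) of each of the 47 genes (rows, in 10 classes divided by lines) minus the gene's mean over the 12 arrays (columns, named by construct, hour and number), with colours ending at -2 and 2. Number 2 of PR2VR at 6 h is low for most genes, and AURKB (2 arrays of 9 h number 1) is the darkest low value.

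The first comparison asked whether either fusion form altered these genes relative to GFP. No gene of the 47 passed in the mean of both fusions against GFP (0 of 47 at an adjusted p under 0.05 in limma, 1 at an unadjusted p under 0.05 where 3.14% of all genes were, 47 with an adjusted p of 1.0). The share of all 13959 genes that passed was 0.00716%, which is 1 gene, RARA. With the set (the 3 arrays of 1 hour and number) as a block, 0 of the 47 passed as well, 2 had an unadjusted p under 0.05 (8.4% of all genes) and the lowest adjusted p was 0.241, where 0.315% of all genes passed. The median log2 difference was -0.10 over the 47 genes and -0.02 over all genes tested. Of the 47 genes, 32 lay below 0 (68.1%), against 52.4% of all genes tested. For every one of the 47 genes the signals of fusion and GFP arrays overlapped. The median standard error (SE) of a gene was 0.28 and the median half-width of its 95% interval 0.59, and for 38 of the 47 genes the interval lay within -1 and 1. For these 38 the intervals leave out a change by a factor of 2 in either direction, and smaller changes are within them.

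**Figure D2:**
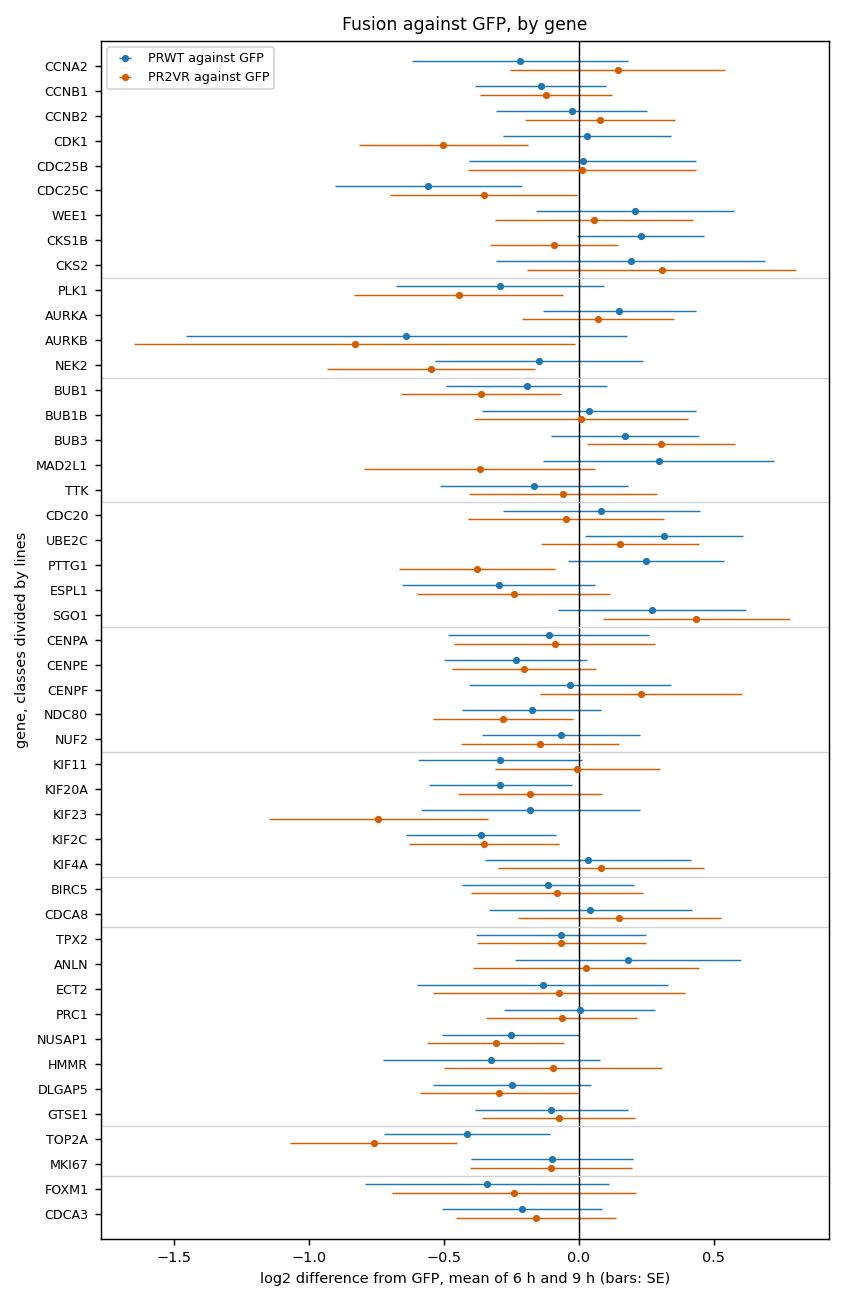
Log2 difference from GFP (mean of 6 h and 9 h, points; bars are SE; n = 4 arrays per construct) for PRWT and PR2VR, by gene in 10 classes divided by lines. Of the 47 points, 30 lie below 0 for PRWT and 33 for PR2VR, and TOP2A and AURKB are among the lowest for both.

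Among the cyclins, CDK1 and its direct regulators (9 genes), 5 lay above 0 and 4 below, with a median of 0.01 and a range of -0.46 to 0.25. CDK1, the kinase that starts mitosis, gave signals of 23302 and 12539 on the GFP arrays of 6 h (numbers 1 and 2) and of 19403 and 21436 on those of 9 h. With PRWT it read 13498 and 14549 at 6 h and 25269.5 and 26633 at 9 h. With PR2VR it read 7653 and 15344, then 12336 and 20695. The constructs overlapped, and the lowest value was number 1 of PR2VR at 6 h, one of the arrays that stood apart. CDK1 differed by -0.24 ± 0.27 (log2, SE, n = 8 fusion against 4 GFP arrays; 95% interval -0.82 to 0.35), by -0.11 ± 0.24 without that array, and by -0.013 and -0.46 without number 1 or number 2 of GFP at 6 h.

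Cyclin B1 (CCNB1), the main mitotic partner of CDK1, read 34145 and 35787 in GFP at 6 h and 36219.5 and 32268 at 9 h. PRWT arrays read 27452 and 28284 (6 h) and 36947 and 33518 (9 h). PR2VR arrays read 44408 and 26815 (6 h) and 30989 and 27597 (9 h). Its highest and lowest signals were the 2 arrays of PR2VR at 6 h. CCNB1 differed by -0.13 ± 0.21 (95% interval -0.59 to 0.32) and CCNB2 by 0.03 ± 0.24. WEE1, the inhibitory kinase, read 5271 and 3007 in GFP at 6 h and 5253 and 5100.1 at 9 h. Signals with PRWT were 10294 and 3254 at 6 h and 4597 and 4913 at 9 h. Those with PR2VR were 3042 and 5252 at 6 h and 5742 and 5410.2 at 9 h. Its one high value was number 1 of PRWT at 6 h, and it differed by 0.13 ± 0.32.

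CDC25C, a phosphatase that activates CDK1, read 691.8 and 674.7 in GFP at 6 h and 748.6 and 948.1 at 9 h. The PRWT arrays gave 366.8 and 497.6 at 6 h and 416.5 and 779.9 at 9 h, and the PR2VR arrays 681.6 and 325.5 at 6 h and 650.3 and 770.1 at 9 h. It was lower with the fusions than with GFP within each of the 4 sets (differences of -0.42, -0.66, -0.47 and -0.27), yet its difference of -0.46 ± 0.30 did not pass (95% interval -1.10 to 0.19). Its relative CDC25B differed by 0.01 ± 0.37. The small CDK-binding proteins CKS1B and CKS2 differed by 0.07 ± 0.20 and 0.25 ± 0.43, and CCNA2 by -0.04 ± 0.35. CCNB2 gave 22733 and 39817 at 6 h and 25046 and 30921 at 9 h with GFP, 21988 and 38511 at 6 h and 24934 and 30800.3 at 9 h with PRWT, and 32060.1 and 31605 at 6 h and 31782 and 27007 at 9 h with PR2VR. CCNB2 was highest on number 2 of GFP at 6 h and lowest on number 1 of PRWT at 6 h.

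Of the 4 mitotic kinases 3 lay below 0, with a median of -0.36. PLK1, which promotes mitotic entry and spindle assembly, read 1415 and 2175 in GFP at 6 h and 1899.6 and 2297 at 9 h. With PRWT it read 922.9 and 1522 at 6 h and 2051 and 1999 at 9 h. With PR2VR it read 2080.0 and 520.5, then 1888 and 1763. Number 2 of PR2VR at 6 h was the lowest of the 12 arrays, and at 9 h the 6 arrays lay between 1763 and 2297. PLK1 differed by -0.37 ± 0.33 and the centrosome kinase NEK2 by -0.35 ± 0.33, which was below 0 in 4 of 4 sets. Single arrays moved both: PLK1 gave -0.60 without number 1 and -0.13 without number 2 of PR2VR at 6 h, and NEK2 -0.59 without number 1 and -0.11 without number 2 of GFP at 9 h. AURKA, the centrosomal Aurora kinase, differed by 0.11 ± 0.24. NEK2 gave 2957 and 2672 at 6 h and 2419 and 4798 at 9 h with GFP, 2635 and 2172 at 6 h and 2123 and 4955 at 9 h with PRWT, and 1431 and 1800.1 at 6 h and 1659.8 and 4484 at 9 h with PR2VR. NEK2 was highest on number 2 of PRWT at 9 h and lowest on number 1 of PR2VR at 6 h. AURKA gave 23722 and 23390.1 at 6 h and 22208 and 14908 at 9 h with GFP, 22432 and 21945 at 6 h and 29971 and 18899 at 9 h with PRWT, and 25110.0 and 19214 at 6 h and 28234 and 16409 at 9 h with PR2VR. AURKA was highest on number 1 of PRWT at 9 h and lowest on number 2 of GFP at 9 h.

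AURKB, the kinase of the chromosomal passenger complex, had the difference furthest from 0 and the largest error of the class, -0.74 ± 0.71 (95% interval -2.26 to 0.79). It was singled out after its values were seen. Its probe set read 678.0 and 1202 in GFP at 6 h and 459.6 and 2109.9 at 9 h. PRWT arrays read 720.0 and 677.9 (6 h) and 99.5 and 1854 (9 h). PR2VR arrays read 790.9 and 396.4 (6 h) and 91.6 and 1695 (9 h). Both fusion arrays of 9 h number 1 were far below the rest, while the same group's number 2 arrays were among the highest. The other AURKB probe set did not show this: on those 2 arrays it read 195.2 and 344.2, within its range of 36.3 to 581.3. The complex's other members here, survivin (BIRC5) and borealin (CDCA8), differed by -0.10 ± 0.28 and 0.10 ± 0.33. BIRC5 gave 1504 and 1869.7 at 6 h and 2037 and 1959 at 9 h with GFP, 1357 and 1523 at 6 h and 2241 and 1741 at 9 h with PRWT, and 2846 and 1118 at 6 h and 1561 and 1770.3 at 9 h with PR2VR. BIRC5 was highest on number 1 of PR2VR at 6 h and lowest on number 2 of PR2VR at 6 h. CDCA8 gave 6693 and 4258 at 6 h and 5896 and 9395 at 9 h with GFP, 5082 and 4602 at 6 h and 6112 and 12394 at 9 h with PRWT, and 10486 and 3519.7 at 6 h and 7393 and 8759 at 9 h with PR2VR. CDCA8 was highest on number 2 of PRWT at 9 h and lowest on number 2 of PR2VR at 6 h.

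The 5 checkpoint genes had a median of -0.04 and a range of -0.28 to 0.24. BUB1, a checkpoint kinase at kinetochores, read 8501 and 5969 in GFP at 6 h and 7804 and 11295 at 9 h. Signals with PRWT were 6028 and 3969.8 at 6 h and 8524 and 12742 at 9 h. Those with PR2VR were 5304 and 3666 at 6 h and 7972 and 10451 at 9 h. At 6 h the 4 fusion arrays overlapped the GFP pair, and all 6 arrays of 9 h except number 1 of GFP and number 1 of PR2VR lay above every 6 h array. BUB1 differed by -0.28 ± 0.26, BUB1B by 0.02 ± 0.34, TTK by -0.11 ± 0.30, MAD2L1 by -0.04 ± 0.37 and BUB3 by 0.24 ± 0.24. MAD2L1, the inhibitor of CDC20, reached only 3699 on number 1 of PR2VR at 6 h, its lowest signal, against a highest of 23399. MAD2L1 gave 16023 and 7189.9 at 6 h and 10335 and 15077 at 9 h with GFP, 16313 and 11756 at 6 h and 9105 and 23399 at 9 h with PRWT, and 3699 and 10742 at 6 h and 9485 and 17001 at 9 h with PR2VR. MAD2L1 was highest on number 2 of PRWT at 9 h and lowest on number 1 of PR2VR at 6 h. BUB3 gave 24906 and 35542 at 6 h and 22871 and 33369 at 9 h with GFP, 34186 and 34948 at 6 h and 23209 and 39049 at 9 h with PRWT, and 43474 and 30845 at 6 h and 37938 and 30833 at 9 h with PR2VR. BUB3 was highest on number 1 of PR2VR at 6 h and lowest on number 1 of GFP at 9 h.

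Among the genes of anaphase onset (5 genes, median 0.02), CDC20, which activates the anaphase-promoting complex, differed by 0.02 ± 0.32, its ubiquitin-conjugating partner UBE2C by 0.23 ± 0.25 and securin (PTTG1), the inhibitor of separase, by -0.07 ± 0.25. Separase itself (ESPL1) differed by -0.27 ± 0.31. Shugoshin (SGO1), which protects centromeric cohesion, differed by 0.35 ± 0.30, the highest value of the 47, with signals of 299.4 to 964.1. A second SGO1 probe set differed by -0.32 ± 0.35, so the 2 probe sets differ in direction. CDC20 gave 12164 and 15521 at 6 h and 14014 and 10283 at 9 h with GFP, 10179 and 17879.7 at 6 h and 19419 and 9689.7 at 9 h with PRWT, and 21307 and 9422 at 6 h and 14781 and 8003 at 9 h with PR2VR. CDC20 was highest on number 1 of PR2VR at 6 h and lowest on number 2 of PR2VR at 9 h. UBE2C gave 2242 and 2913 at 6 h and 3342 and 3594 at 9 h with GFP, 3218 and 5102 at 6 h and 2683 and 4344 at 9 h with PRWT, and 3075 and 2799 at 6 h and 3134 and 4491 at 9 h with PR2VR. UBE2C was highest on number 2 of PRWT at 6 h and lowest on number 1 of GFP at 6 h. PTTG1 gave 16228 and 25034 at 6 h and 22271 and 19256 at 9 h with GFP, 19040.1 and 34839.6 at 6 h and 23336 and 22398 at 9 h with PRWT, and 19558 and 13016 at 6 h and 13263 and 18004 at 9 h with PR2VR. PTTG1 was highest on number 2 of PRWT at 6 h and lowest on number 2 of PR2VR at 6 h. SGO1 gave 613.9 and 299.4 at 6 h and 437.1 and 683.2 at 9 h with GFP, 474.7 and 394.1 at 6 h and 702.1 and 964.1 at 9 h with PRWT, and 680.8 and 590.0 at 6 h and 569.9 and 930.6 at 9 h with PR2VR. SGO1 was highest on number 2 of PRWT at 9 h and lowest on number 2 of GFP at 6 h.

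The kinetochore genes had a median of -0.11, with 4 of 5 below 0. NDC80, the microtubule-binding subunit that gives its name to the NDC80 complex, differed by -0.23 ± 0.22, its partner NUF2 by -0.11 ± 0.25, the centromeric histone CENPA by -0.10 ± 0.32, the kinetochore motor CENPE by -0.22 ± 0.23 and CENPF by 0.10 ± 0.32. CENPE gave 1959.6 and 1504 at 6 h and 1813 and 1748 at 9 h with GFP, 1346 and 1194 at 6 h and 1891 and 1564 at 9 h with PRWT, and 1312 and 1198 at 6 h and 1993 and 1658 at 9 h with PR2VR. CENPE was highest on number 1 of PR2VR at 9 h and lowest on number 2 of PRWT at 6 h. CENPF gave 20205 and 14113 at 6 h and 15857 and 12116 at 9 h with GFP, 19258 and 11872 at 6 h and 19229 and 11363 at 9 h with PRWT, and 34922 and 11296 at 6 h and 20428 and 12894 at 9 h with PR2VR. CENPF was highest on number 1 of PR2VR at 6 h and lowest on number 2 of PR2VR at 6 h. The kinesins had a lower median (-0.24, 4 of 5 below 0). KIF2C, which depolymerises microtubules at centromeres, read 15386 and 13092 in GFP at 6 h and 15684 and 15074 at 9 h. The PRWT arrays gave 11617 and 10212 at 6 h and 13840.1 and 10534 at 9 h, and the PR2VR arrays 15600.1 and 7895 at 6 h and 13076 and 11094 at 9 h. Each of the 4 GFP arrays lay above the fusion arrays of its own set in all but the PR2VR array of 6 h number 1. KIF2C differed by -0.36 ± 0.24 (95% interval -0.88 to 0.16). KIF23, a motor of the central spindle, differed by -0.46 ± 0.35, and its lowest signal was that of number 1 of PR2VR at 6 h, at 950.0 against 2936 to 6124 elsewhere. Without that array KIF23 differed by -0.23 ± 0.27, and without number 2 of the same group by -0.69. The spindle motor KIF11, KIF20A and KIF4A differed by -0.15 ± 0.26, -0.24 ± 0.23 and 0.06 ± 0.33. KIF23 gave 4858 and 4798 at 6 h and 3505 and 6124 at 9 h with GFP, 3406 and 3727 at 6 h and 3957 and 5995 at 9 h with PRWT, and 950.0 and 3615 at 6 h and 2936 and 5943 at 9 h with PR2VR. KIF23 was highest on number 2 of GFP at 9 h and lowest on number 1 of PR2VR at 6 h. KIF4A gave 5762 and 4537 at 6 h and 4423 and 11419.9 at 9 h with GFP, 7008 and 4245 at 6 h and 5191 and 9377 at 9 h with PRWT, and 8405 and 3646 at 6 h and 7034 and 7728 at 9 h with PR2VR. KIF4A was highest on number 2 of GFP at 9 h and lowest on number 2 of PR2VR at 6 h.

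Of the 8 spindle and cytokinesis genes 7 lay below 0, with a median of -0.10 and a range of -0.28 to 0.10. NUSAP1, which bundles spindle microtubules, differed by -0.28 ± 0.22 and was below 0 in 4 of 4 sets. DLGAP5, a spindle microtubule protein, differed by -0.27 ± 0.25, the hyaluronan receptor and spindle protein HMMR by -0.21 ± 0.35, and TPX2, the activator of AURKA, by -0.07 ± 0.27. For the cytokinesis genes the differences were -0.03 ± 0.24 (PRC1), -0.10 ± 0.40 (ECT2) and 0.10 ± 0.36 (anillin, ANLN). PRC1 gave 23235 and 16679.9 at 6 h and 14904 and 16829 at 9 h with GFP, 21745 and 17139 at 6 h and 20230.3 and 12995 at 9 h with PRWT, and 22912 and 13430.0 at 6 h and 16105 and 16434 at 9 h with PR2VR. PRC1 was highest on number 1 of GFP at 6 h and lowest on number 2 of PRWT at 9 h. NUSAP1 gave 26589.7 and 20559 at 6 h and 24314 and 29723 at 9 h with GFP, 17405 and 17043 at 6 h and 23980.1 and 27495 at 9 h with PRWT, and 23839 and 16099 at 6 h and 18097 and 24107 at 9 h with PR2VR. NUSAP1 was highest on number 2 of GFP at 9 h and lowest on number 2 of PR2VR at 6 h. DLGAP5 gave 9896 and 6649 at 6 h and 7715 and 11277 at 9 h with GFP, 6574 and 4695 at 6 h and 7867 and 11802 at 9 h with PRWT, and 6718 and 4805 at 6 h and 7784 and 9921 at 9 h with PR2VR. DLGAP5 was highest on number 2 of PRWT at 9 h and lowest on number 2 of PRWT at 6 h. FOXM1, the transcription factor of the programme, read 4503 and 1959 in GFP at 6 h and 3712 and 3085 at 9 h. With PRWT it read 3056 and 1226 at 6 h and 3978 and 2559 at 9 h. With PR2VR it read 4868 and 1159, then 3090.2 and 2907. The number 1 arrays of 6 h were above the number 2 arrays in every construct, and that gap was wider than any between constructs of the same number at 6 h. FOXM1 differed by -0.29 ± 0.39, CDCA3 by -0.19 ± 0.26 and the proliferation marker MKI67 by -0.10 ± 0.26. CDCA3 gave 5191 and 4641 at 6 h and 7788 and 7058 at 9 h with GFP, 4333 and 4049 at 6 h and 6592 and 6337 at 9 h with PRWT, and 7538 and 3404 at 6 h and 6647 and 4965 at 9 h with PR2VR. CDCA3 was highest on number 1 of GFP at 9 h and lowest on number 2 of PR2VR at 6 h. MKI67 gave 6948 and 4781 at 6 h and 12399 and 10402 at 9 h with GFP, 5888 and 5930.1 at 6 h and 9860.0 and 9396 at 9 h with PRWT, and 9139 and 4478 at 6 h and 10849 and 7222 at 9 h with PR2VR. MKI67 was highest on number 1 of GFP at 9 h and lowest on number 2 of PR2VR at 6 h.

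TOP2A, the type II topoisomerase that untangles chromosomes before they separate, had the smallest p of the 47. It read 16243 and 13149.5 in GFP at 6 h and 13261 and 10819.7 at 9 h. PRWT arrays read 9657 and 8276 (6 h) and 14801 and 8149 (9 h). PR2VR arrays read 9516 and 7707 (6 h) and 10112 and 4941 (9 h). At 6 h all 4 fusion arrays lay below both GFP arrays, and at 9 h they overlapped, since number 1 of PRWT was above both GFP arrays. NDC80, CENPE, NEK2 and KIF23 also had all 4 fusion arrays below both GFP arrays at 6 h. The share of all genes tested with this order was not counted. TOP2A differed by -0.59 ± 0.27 over both fusions (95% interval -1.16 to -0.01; adjusted p = 1.0 in limma), by -0.41 ± 0.31 in PRWT and by -0.76 ± 0.31 in PR2VR. With the set as a block the adjusted p in limma was 0.241, and the within-set differences were -0.76, -0.72, -0.12 and -0.76. Its other tested probe sets differed by -0.25 ± 0.28 and -0.71 ± 0.36. The first of these gave its highest signals, 10358.4 to 15583.6, on the 3 arrays of 9 h number 2, where the chosen probe set gave 4940.5 to 10819.7, so the probe sets of this gene disagree on those arrays. At 6 h neither of the other probe sets separated the fusion arrays from GFP. The first read 9052.5 and 4991.3 with GFP and 4467.9 to 8911.1 with the fusions. The second read 292.5 and 425 with GFP and 129.8 to 327.9 with the fusions.

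**Figure D3:**
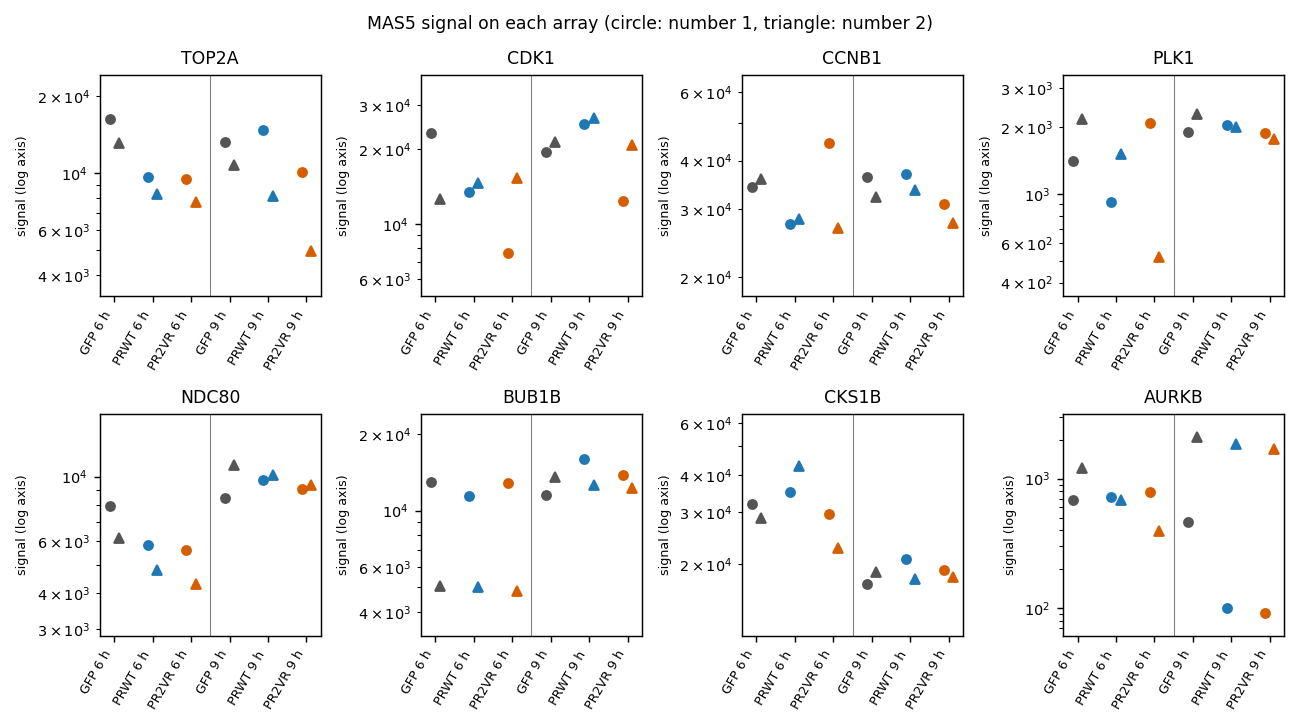
MAS5 signal (log axis) of 8 genes on each of the 12 arrays, by construct and hour; circles are number 1 and triangles number 2. The chosen probe sets of TOP2A and NDC80 lie lower in all 4 fusion arrays of 6 h than in the GFP pair. BUB1B splits by number at 6 h, and NDC80 is higher and CKS1B lower on every 9 h array. AURKB is lowest on number 1 of both fusions at 9 h.

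Both directions were also counted within the sets. Of the 47 genes, 8 were lower with the fusions in 4 of 4 sets (17%, against 10.7% of all genes tested) and 0 were higher in 4 of 4 (against 9.23%). The 8 were CDC25C, NEK2, KIF20A, KIF23, KIF2C, NUSAP1, TOP2A and FOXM1. No gene of the 47 had all 8 fusion arrays below, or all 8 above, the 4 GFP arrays, against 0.251% and 0.229% of all genes tested. The set medians of the 47 genes were -0.05 and -0.26 at 6 h and 0.02 and -0.11 at 9 h (numbers 1 and 2), where all genes gave 0.05, -0.03, -0.04 and -0.03. The shift below 0 was larger with number 2 of each hour, in which 38 and 32 of the 47 genes lay below 0, against 25 and 23 with number 1. At 6 h this held for PR2VR (41 below 0 with number 2 and 22 with number 1) and not for PRWT, where 31 lay below 0 with number 2 and 36 with number 1 (medians -0.19 and -0.24). The fusion arrays of 6 h number 2 had the lowest RARA signals, 11970.8 (PRWT) and 9281.2 (PR2VR). The other fusion arrays gave 29626.4 to 58985, and the part of this in the set differences was not tested.

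Each form was also set against GFP alone, and both forms share the same GFP arrays. In PRWT against GFP 0 of 47 passed in limma, against 0.00716% of all genes, and 0 had an unadjusted p under 0.05, against 2.06%. With the block 0 passed (0.00716% of all genes) and 1 was under 0.05 (5.44%). The median was -0.11, and 30 lay below 0, against 49.4% of all genes. In PR2VR against GFP 0 of 47 passed in limma, against 0.00716% of all genes, and 1 had an unadjusted p under 0.05, against 3.95%. With the block 0 passed (0.294% of all genes) and 4 were under 0.05 (11.1%). The median was -0.09, and 33 lay below 0, against 53.1% of all genes. The PR2VR median turned to -0.29 without number 1 of PR2VR at 6 h and to 0.08 without number 2 of that group, so either array moves it by more than its size from 0.

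The comparison of PR2VR with PRWT asked whether resistance to proteases changes the response, and uses no GFP array. None of the 47 passed (0 of 47 in limma, against 0% of all genes), and 1 had an unadjusted p under 0.05, against 1.55%. With the block 0 passed (0% of all genes), 1 was under 0.05 (6.86%) and the lowest adjusted p was 0.723. The median was 0.00, with 23 genes below 0 (48.9%, against 51.3% of all genes). The lowest unadjusted p was that of PTTG1, -0.63 ± 0.29 (95% interval -1.25 to -0.00). MAD2L1 differed by -0.66 ± 0.43, KIF23 by -0.56 ± 0.41 and CDK1 by -0.53 ± 0.31, 3 genes that were low on number 1 of PR2VR at 6 h. Without that array they differed by -0.28 ± 0.42, -0.10 ± 0.34 and -0.28 ± 0.30, and PTTG1 by -0.77 ± 0.30, with an adjusted p of 1.0 in limma for each. All 4 mitotic kinases and both genes of chromosome structure lay below 0, by -0.00 to -0.40, and 4 of 5 kinesins lay above. KIF2C and KIF4A fell to -0.23 and -0.25 without number 1 of PR2VR at 6 h. KIF11 and KIF20A stayed above 0 there, at 0.12 and 0.11, and the kinases and genes of chromosome structure stayed below. Values of these genes without number 2 of that group are not given, so the range is shown at 1 end only. Within the sets of 6 h (numbers 1 and 2), PLK1 differed by 1.12 and -1.44 and MKI67 by 0.63 and -0.40. AURKA differed by 0.16 and -0.19 and AURKB by 0.13 and -0.69. NEK2 and TOP2A lay below 0 in 4 of 4 sets. Without number 1 of PR2VR at 6 h the median was -0.22, and without number 2 it was 0.16. For 33 of 47 genes the 95% interval lay within -1 and 1, and smaller differences between the forms are within these intervals.

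Split by hour, the median difference of both fusions from GFP was -0.14 at 6 h (33 of 47 below 0, where 49.6% of all genes were) and -0.01 at 9 h (27 below 0, where 54.3% were), against 0.00 and -0.04 over all genes tested. No gene of the 47 passed at either hour (0 and 0 of 47 in limma, against 0.00716% of all genes at each). At an unadjusted p under 0.05 there were 0 and 0 (1.83% and 2.08% of all genes), and with the block 5 and 1 (5.63% and 6.32%). At 6 h the lowest values were -0.89 ± 0.50 for KIF23, -0.74 ± 0.38 for TOP2A, -0.62 ± 0.47 for PLK1 and -0.61 ± 0.36 for BUB1. Without number 1 of PR2VR at 6 h these became -0.42 ± 0.40, -0.81 ± 0.40, -1.09 ± 0.36 and -0.74 ± 0.36, each with an adjusted p of 1.0 in limma. Between numbers, KIF23 differed from GFP by -1.39 in the number 1 set and by -0.38 in the number 2 set. TOP2A differed by -0.76 and -0.72, PLK1 by -0.02 and -1.22, and BUB1 by -0.58 and -0.64. The lowest PLK1 signal, 520.5, was on number 2 of PR2VR at 6 h. Values at 6 h without that array are not given, so the range from single arrays is shown at 1 end only. At 9 h the same genes gave -0.04 ± 0.50, -0.44 ± 0.38, -0.12 ± 0.47 and 0.05 ± 0.36. The difference between the hours was tested as an interaction. Its median over the 47 genes was 0.13 against -0.02 over all genes, with 34 of 47 above 0 (72.3%, against 48.0%), and 0 of 47 passed (against 0% of all genes; in limma 0 were under 0.05 against 0.759%, and 1 with the block against 3.11%). KIF11 had the lowest p there, at 0.72 ± 0.53.

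The median shift was larger for time than for the fusions, and it lay mostly between the number 2 arrays. Each array was read as the median deviation of the 47 genes from their means over the 12 arrays. With number 2 this was -0.50 to -0.10 at 6 h and 0.27 to 0.35 at 9 h. With number 1 it was -0.20 to 0.20 at 6 h and 0.01 to 0.12 at 9 h. The 9 h arrays were compared with the 6 h arrays over the 3 constructs. Of the 47 genes, 36 lay above 0 (76.6%, against 60.6% of all genes tested), and their median was 0.39 against 0.13 over all genes. None passed (0 of 47, against 0.0788% of all genes; 9 at an unadjusted p under 0.05 in limma, which is 19.1% against 15.1% of all genes), with the lowest adjusted p at 0.175. With the set as a random block 0 of 47 passed (against 0% of all genes), 4 were under 0.05 (5.49% of all genes) and the lowest adjusted p was 0.857. The difference pointed up in all 3 constructs for 29 of the 47 genes (61.7% against 33.3%) and down in all 3 for 6 (12.8% against 19.7%). By construct the medians were 0.24 in GFP, 0.38 in PRWT and 0.38 in PR2VR.

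Between the hours 2 of the 47 genes did not overlap. NDC80 read 7927 and 6171 in GFP at 6 h and 8433 and 10934 at 9 h. Signals with PRWT were 5851 and 4784 at 6 h and 9739 and 10112 at 9 h. Those with PR2VR were 5616 and 4285 at 6 h and 9081 and 9382 at 9 h. Every 9 h array lay above every 6 h array (1 of 47 genes, 2.13%, against 1.25% of all genes), and the difference was 0.75 ± 0.21 (n = 6 arrays per hour; adjusted p = 0.188 in limma). CKS1B, a small protein that binds CDK1 and also serves the ubiquitin ligase that removes p27, went the other way. Its probe set read 31942 and 28640.2 in GFP at 6 h and 17214 and 18845 at 9 h. The PRWT arrays gave 35085 and 42865 at 6 h and 20784 and 17893 at 9 h, and the PR2VR arrays 29440.3 and 22639 at 6 h and 19129 and 18057 at 9 h. Every 9 h array lay below every 6 h array (1 of 47, 2.13%, against 0.666% of all genes), and the difference was -0.74 ± 0.19 (adjusted p = 0.175). CKS2 had the difference furthest from 0, -0.93 ± 0.41, with signals of 13025 to 66064 at 6 h and 7003 to 23095 at 9 h, which overlap. The standard errors and p-values of single genes for time treat the 6 arrays of an hour as separate, although arrays of the same number deviated together. With the set as a random block the lowest adjusted p in limma among the 47 genes was 0.857.

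By class, the checkpoint genes had the highest median for time (0.58), led by BUB1 at 0.84 ± 0.24 and BUB1B at 0.75 ± 0.32. BUB1B was low only on the number 2 arrays of 6 h, at 4839.3 to 5066.5. Its number 1 arrays of 6 h, at 11377.5 to 13002.5, overlapped the 9 h arrays, at 11495.5 to 15982.2. All 5 kinesins lay above 0 (median 0.41), as did 7 of 8 spindle and cytokinesis genes (median 0.42) and 4 of 5 kinetochore genes (median 0.39). MKI67, a coat protein of mitotic chromosomes, differed by 0.71 ± 0.24, CDK1 by 0.57 ± 0.25 and PLK1 by 0.58 ± 0.32, whereas CCNB1 and CCNB2 differed by 0.02 ± 0.20 and -0.10 ± 0.23. The number 2 arrays of 9 h, with their higher median signals and lower 3' to 5' ratios, move with this comparison. Without these 3 arrays the median over the 47 genes was 0.19 against 0.08 over all genes, NDC80 differed by 0.67, BUB1 by 0.59, BUB1B by 0.79, MKI67 by 0.86, CKS1B by -0.71 and CKS2 by -1.45. The GAPDH ratios of the remaining 9 h arrays were 8.14 to 12.9, against 3.82 to 8.28 at 6 h. The number 2 arrays of 6 h stayed in this check, and time differences without them are not given. The part of signal distribution and RNA quality in the time difference was not tested.

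**Figure D4:**
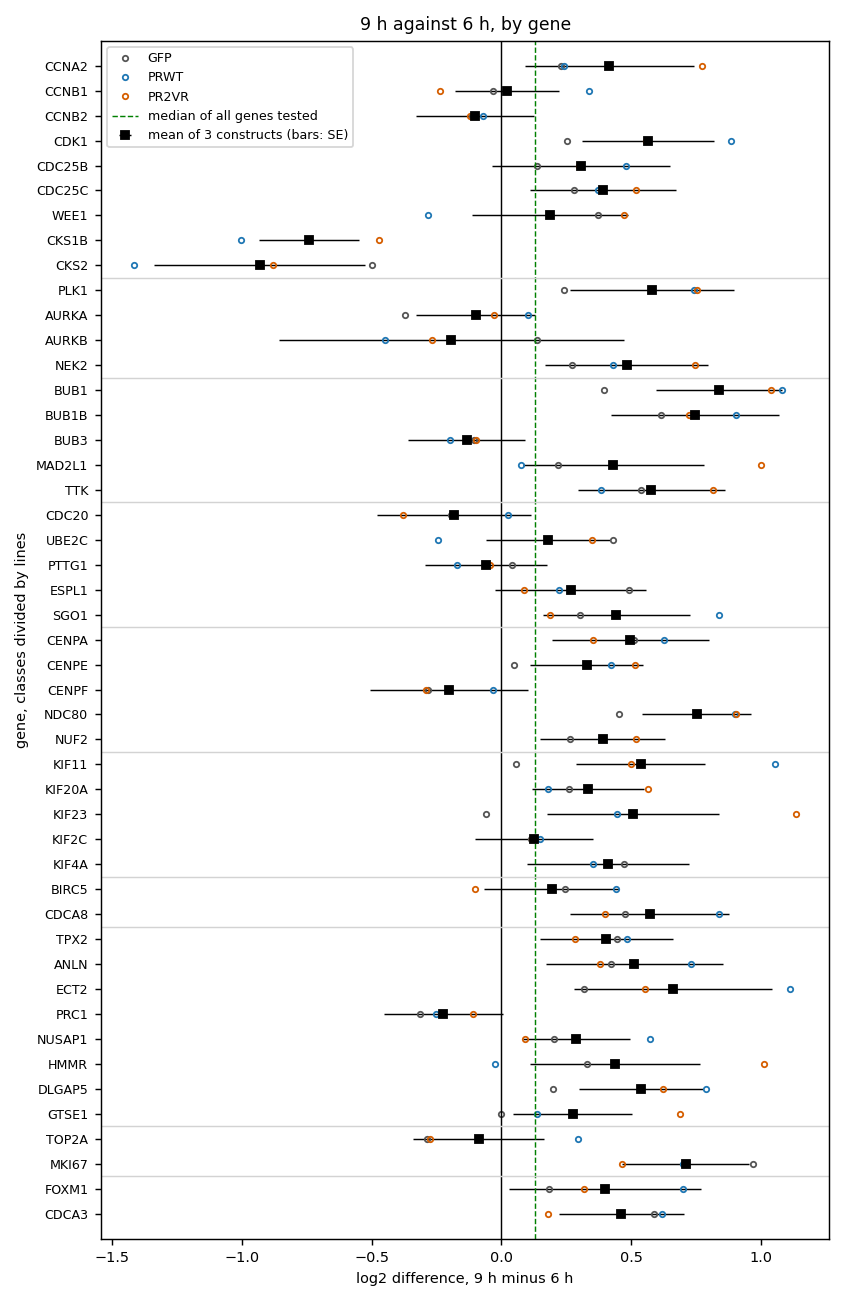
Log2 difference of 9 h from 6 h for each gene (squares are the mean of the 3 constructs with SE bars, n = 6 arrays per hour; open circles are single constructs), with the median of all genes tested (0.13) as a dashed line. Most genes lie to the right of that line, and CKS1B and CKS2 lie far to the left.

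Numbers 1 and 2 of the same hour, which the titles give as replicates, also differed in these genes. The number 2 arrays of 6 h also stood apart on the second principal component over all genes, and the part of this in the pattern was not tested. At 6 h, number 1 was above number 2 in all 3 constructs for 22 of the 47 genes (46.8%, against 23.7% of all genes tested), and number 2 above number 1 for 1 gene, TTK (2.13% against 15.3%). BUB1B read 13003, 11378 and 12772 on number 1 (GFP, PRWT, PR2VR) and 5067, 4995 and 4839 on number 2, and the lowest number 1 array lay above the highest number 2 array. ECT2, the exchange factor that triggers cytokinesis, differed by 1.87, 2.01 and 0.84 (log2, number 1 minus number 2), ANLN by 1.08, 1.39 and 1.61, and FOXM1 by 1.18, 1.28 and 2.01. A gap of 1 or more in all 3 constructs was found for 3 of the 47 genes (6.38%, against 0.924% of all genes), which were BUB1B, ANLN and FOXM1.

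At 9 h the balance was the other way. Number 2 was above number 1 in all 3 constructs for 23 of the 47 genes (48.9%, against 34.1%), and number 1 above number 2 for 10 (21.3% against 27.9%). The 10 were CCNB1, AURKA, CDC20, CENPE, CENPF, KIF2C, TOP2A, MKI67, FOXM1 and CDCA3. AURKB had the widest gap, at -2.06, -3.56 and -3.51, and was the 1 gene with 1 or more in all 3 (against 5.07% of all genes), followed by NEK2 at -0.97, -1.20 and -1.40. CDC20 differed by 0.44, 1.00 and 0.88. BUB1B, which split by number at 6 h, differed by only -0.24, 0.34 and 0.16 at 9 h. Each number holds all 3 constructs, but the gaps were not equal over the constructs. At 6 h the median gap of the 47 genes was 0.23 in GFP, 0.097 in PRWT and 0.59 in PR2VR. At 9 h it was -0.27, -0.13 and -0.15. Single genes also changed direction, such as PLK1 at 6 h with -0.60, -0.68 and 1.88. What the number stands for (a transfection, a day, a hybridisation) the labels do not say.

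**Figure D5:**
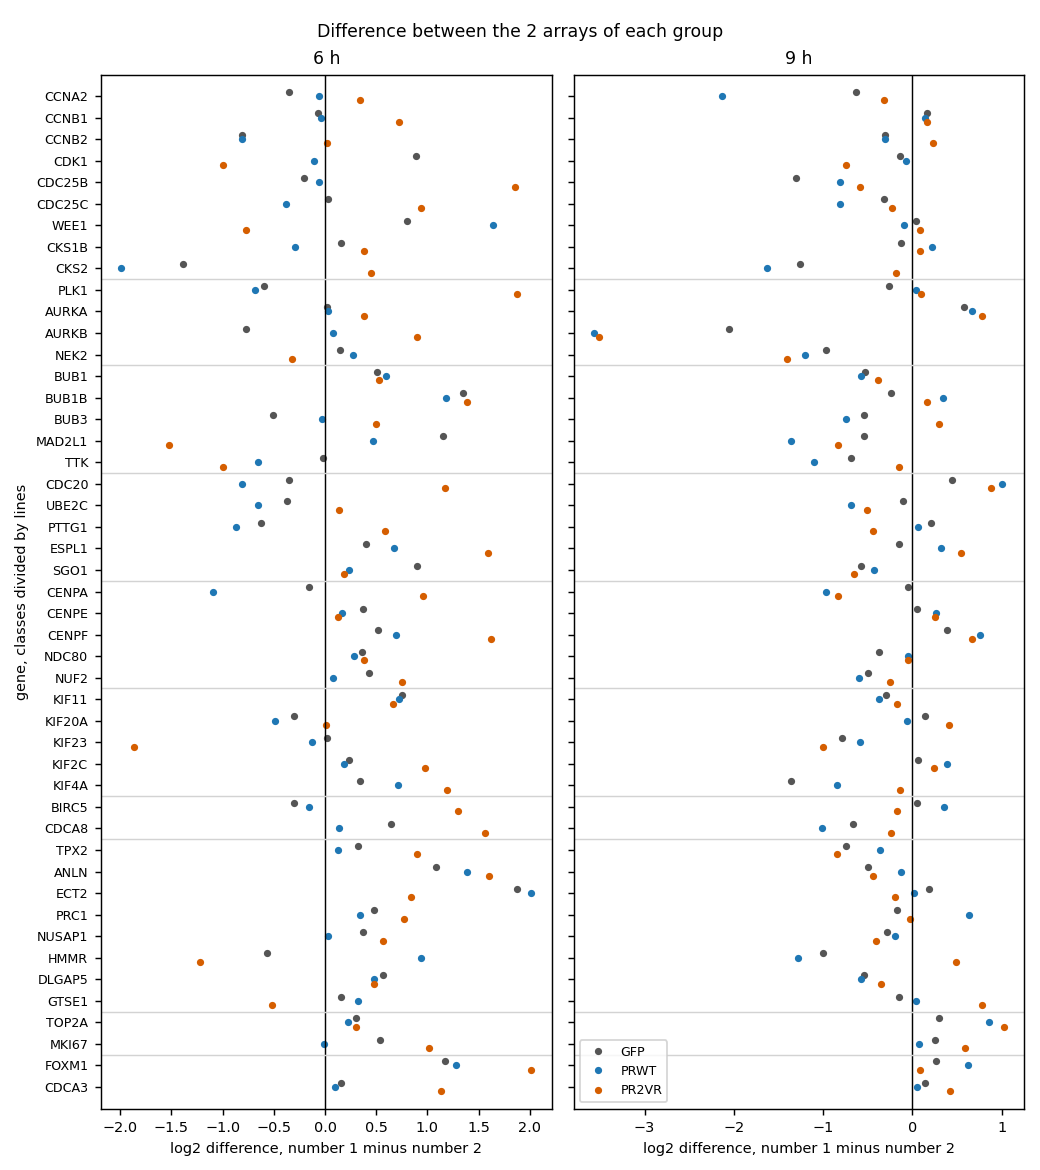
Log2 difference of number 1 minus number 2 for each gene at 6 h (left) and 9 h (right), 1 point per construct. At 6 h the 3 points of BUB1B, ANLN and FOXM1 all lie at 1.08 or more, and at 9 h those of AURKB lie at -2.06 or less.

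Genes around the programme were counted from lists of their own. Among the 11 of 13 genes of G1 and S cyclins, their kinases and inhibitors that were tested, CDKN1A, which encodes the inhibitor p21, differed in both fusions by -1.22 ± 0.22, which passed with the block (adjusted p = 0.0123 in limma) and not without it (adjusted p = 0.31). No other gene of the 6 lists passed against GFP in either fit. The medians against GFP were -0.01 for the anaphase-promoting complex (16 of 17 tested), -0.02 for condensin (8 of 8), 0.02 for cohesin (9 of 9), -0.00 for further kinetochore proteins (26 of 28), 0.01 for the MuvB and DREAM complex (10 of 10) and 0.05 for the G1 and S list. For 9 h against 6 h they were 0.12, 0.58, 0.33, 0.31, 0.20 and 0.13 in the same order, with 0 genes passing in limma and 1, 4, 0, 3, 1 and 1 at an unadjusted p under 0.05, where 15.1% of all genes were. Condensin, which compacts mitotic chromosomes, had 7 of 8 genes above 0 for time (87.5%, against 60.6% of all genes tested). LIN9, a MuvB subunit, had the smallest p of the lists for time (1.06 ± 0.27, adjusted p = 0.175 in limma). The part of the number 2 arrays in the time differences of these lists was not tested.

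Different probe sets of a gene gave a check within the arrays. The 47 genes have 96 probe sets, 21 genes having 1 and 26 several, and 87 of them passed the filter. None of these passed in the 5 comparisons (0 in limma over 32768 probe sets). Of the 24 genes with several tested probe sets, 8 had probe sets on both sides of 0 for the fusions against GFP (AURKA, BUB1, BUB3, CDK1, CENPF, MAD2L1, MKI67 and SGO1), and 14 did so for 9 h against 6 h. For CDK1 the 3 tested probe sets gave -0.24 ± 0.27, 0.37 ± 0.25 and -0.14 ± 0.25 against GFP. Over the 12 arrays the log2 profile of CDK1 was most like those of MED7 (Pearson r = 0.96), CRCP (0.95), CAAP1 (0.93), RWDD3 (0.92) and SCLT1 (0.92), none of them among the 47. Its median r with the other 46 genes was 0.18, against 0.06 with all genes tested. These r values are over 12 arrays that share hours, numbers and constructs, and are given as a description.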

How the data were processed

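RNA of sorted U937 cells was hybridised to 12 Affymetrix arrays, 2 for each of 6 groups. The deposited values are MAS5 signal intensity per probe set on a linear scale; MAS5 is named, with no version, per the submitters' processing notes. The 2% trimmed mean of all arrays is 1500.2, so the authors' arrays were already scaled. Of 54675 probe sets, 41091 carry exactly 1 gene symbol, 1801 several and 11721 none among the 54613 that are not controls.

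An offset of 62.5 (the 20th percentile of all values) was added before log2. For each gene the probe set with the highest mean was used, and genes with a mean log2 under 7.85 (the 40th percentile) were left out, which kept 13959. All differences, standard errors and Benjamini-Hochberg adjusted p-values come from limma 3.58.1 (R 4.3.3) fitted over all 6 groups and all 13959 genes; values are on the log2(signal + 62.5) scale, which understates the change of low genes. The procedure was tested on simulated data. Arrays of the same number and hour deviated together (correlation of deviations 0.15 to 0.36 at 6 h and 0.56 to 0.63 at 9 h). The lowest values were those of PR2VR at 6 h, 0.15 with GFP and 0.21 with PRWT. The numbers were taken to pair the arrays, which the labels do not state. Each comparison was also fitted with the set of 3 arrays as a block (for time, as a random block with a correlation of 0.41).

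The genes named with their signal on every array were CDK1, CCNB1, PLK1, FOXM1 and WEE1 and, in each class, the 2 with the highest mean and the 2 with the smallest p against GFP. Others given in detail (AURKB, BUB1B, CKS1B, CKS2, ECT2, ANLN, KIF20A) were chosen after their values were seen. The members and all lists were chosen with earlier results of these data known. Alternatives were another offset, filter, probe set rule, quantile normalization, no variance trend, and arrays left out.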

Additional observations from a re-analysis of the deposited data

How the results depend on the processing

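With the replicate block 0 of the 47 genes passed in each of the 5 comparisons, as without it, so the pairing changed no call of a member. Over all genes the block moved the count from 1 to 44 (both fusions), from 1 to 41 (PR2VR) and from 11 to 0 (time), and left 1 in PRWT and 0 between the forms. No member passed under any alternative run, and the lowest adjusted p was 0.0962 (time, without number 2 of PR2VR at 6 h).

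The values by form and at 6 h without number 1 of PR2VR at 6 h were chosen after seeing the data. When single arrays were left out, the members' median ran over -0.20 to -0.012 for both fusions, -0.19 to -0.033 for PRWT, -0.29 to 0.083 for PR2VR, -0.22 to 0.16 between the forms and 0.26 to 0.45 for time. The count of all genes passing for time ran from 0 to 53. The difference of both fusions from GFP changed sign for 13 named genes, whose ranges were AURKA -0.033 to 0.25, BIRC5 -0.26 to 0.064, CCNB2 -0.18 to 0.23, CDC20 -0.13 to 0.16, CDCA8 -0.10 to 0.29, CENPF -0.10 to 0.30, FOXM1 -0.58 to 0.00327, KIF4A -0.28 to 0.40, MAD2L1 -0.32 to 0.25, MKI67 -0.24 to 0.031, PRC1 -0.15 to 0.089, PTTG1 -0.22 to 0.090 and WEE1 -0.074 to 0.34. With the mean of all probe sets BUB3 gave -0.049, CENPF -0.21 and MAD2L1 0.026. CDC20 gave -0.00209 after quantile normalization, and PRC1 0.089 without number 2 of 9 h. Among genes that kept their sign, KIF23 ran from -0.69 to -0.23, PLK1 from -0.60 to -0.13, NEK2 from -0.59 to -0.11, CDK1 from -0.46 to -0.013 and SGO1 from 0.13 to 0.58. The causes were not tested. For time, quantile normalization left 3 genes of all, the mean of probe sets 4, no variance trend 2, and leaving out number 2 of 9 h 0. With 2 arrays a group, the number of arrays limits the precision.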
